A study of Mus musculus with 21 samples.

Results

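The regions described here had an ATAC-seq peak in all 4 libraries of endothelial progenitors (EPC) and in 0 of 4 libraries of cardiac progenitors (CPC). Peaks of the 8 lists were merged where they overlapped by 1 bp. Of 51264 merged regions, 1077 met this rule (2.1%), and they are called EPC-only regions below. The mirror rule, a peak in all 4 CPC lists and in 0 EPC lists, gave 922 CPC-only regions, and 13096 regions had a peak in all 8 lists. The regions were thus chosen by their measured peaks, so their absence from CPC lists is not a finding.

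All cells came from A2lox-Sox7-Myc, an E14Tg2a mouse embryonic stem cell line with a doxycycline-inducible, Myc-tagged Sox7. Embryoid bodies, cell aggregates grown in suspension that form mesoderm, were made from it and taken at day 4. Induced cells received doxycycline at 1 µg/ml for 24 h, and uninduced cells received none. The ATAC groups were induced EPC and uninduced EPC, sorted as PDGFRalpha-FLK1+, and induced CPC and uninduced CPC, sorted as PDGFRalpha+FLK1+, with 2 libraries each. Sox7 ChIP-seq with an anti-Myc antibody had 4 induced and 4 uninduced libraries from dissociated embryoid bodies, beside 1 input library. Every group thus carries the transgene, and one inducible line stands for the genotype. No label states whether replicates came from separate cultures, so spreads and p-values measure only the difference between libraries. The growth protocol also names a sort for PDGFRα+FLK1- cells, and the groups here follow the characteristics of each ATAC sample. The 4 RNA-seq samples were not analysed here.

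ATAC-seq cuts DNA where chromatin is accessible, and a peak marks an open stretch such as a promoter or an enhancer. Regions that are open in 1 cell type and closed in a related one often lie away from promoters, at enhancers bound by the transcription factors of that cell type. In mouse mesoderm, FLK1+ cells that lack PDGFRα give rise to endothelium and to the first blood cells, and their regulators include ETS factors, GATA factors and the E-box protein Tal1. Sox7 is a SoxF transcription factor of early endothelial and blood-forming cells.

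Sequence could be read only in promoter windows that EPC-only regions overlapped, in whole or in part. Of the 1077 regions, 60 overlapped a RefSeq promoter window (GRCm38.p6, 250 bases before to 50 after a start site), at 61 genes, of which 43 are protein-coding. At 36 of these 43 genes a window lay wholly inside its region. A few of them are shown from 250 bases before to 30 after the start site: Egfl7, Robo4 and Itga2b, the endothelial and blood list genes among them, and Myct1, Edn1 and Epb42, chosen after their values were seen. Capitals mark matches on either strand to ETS letters, which are AGGAAGT and its variant CGGAAGT, and to GATA letters, which are AGATAA.
Egfl7, chr2:26583615-26583894 (plus strand): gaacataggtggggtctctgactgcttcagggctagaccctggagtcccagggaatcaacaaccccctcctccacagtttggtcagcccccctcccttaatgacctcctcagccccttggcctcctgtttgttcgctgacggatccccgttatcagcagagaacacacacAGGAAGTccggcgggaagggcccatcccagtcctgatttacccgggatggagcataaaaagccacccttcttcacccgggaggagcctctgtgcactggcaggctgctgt
Myct1, chr10:5593478-5593757 (plus strand): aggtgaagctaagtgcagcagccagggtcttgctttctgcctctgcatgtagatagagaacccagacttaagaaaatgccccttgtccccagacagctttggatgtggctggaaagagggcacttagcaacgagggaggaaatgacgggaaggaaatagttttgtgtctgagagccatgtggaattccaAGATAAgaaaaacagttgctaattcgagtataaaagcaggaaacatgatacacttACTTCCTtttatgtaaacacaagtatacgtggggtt
Edn1, chr13:42301226-42301505 (plus strand): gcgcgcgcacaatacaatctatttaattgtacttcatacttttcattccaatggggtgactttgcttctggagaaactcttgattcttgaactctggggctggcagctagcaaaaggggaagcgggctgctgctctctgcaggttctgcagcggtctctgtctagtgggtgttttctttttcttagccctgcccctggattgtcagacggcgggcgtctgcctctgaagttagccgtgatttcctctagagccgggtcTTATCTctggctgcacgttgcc
Epb42, chr2:121036848-121037127 (minus strand): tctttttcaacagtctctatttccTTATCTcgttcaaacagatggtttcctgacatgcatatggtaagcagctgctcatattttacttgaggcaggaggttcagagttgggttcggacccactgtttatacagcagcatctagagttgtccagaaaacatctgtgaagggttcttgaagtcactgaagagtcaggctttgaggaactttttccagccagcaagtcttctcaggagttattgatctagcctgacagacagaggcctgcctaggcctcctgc
Robo4, chr9:37401722-37402001 (plus strand): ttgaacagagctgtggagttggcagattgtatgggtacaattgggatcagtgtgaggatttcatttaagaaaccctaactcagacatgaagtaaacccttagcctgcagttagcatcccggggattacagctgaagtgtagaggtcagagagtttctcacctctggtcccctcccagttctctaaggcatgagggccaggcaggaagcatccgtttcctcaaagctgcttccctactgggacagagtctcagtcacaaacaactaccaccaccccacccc
Itga2b, chr11:102469854-102470133 (minus strand): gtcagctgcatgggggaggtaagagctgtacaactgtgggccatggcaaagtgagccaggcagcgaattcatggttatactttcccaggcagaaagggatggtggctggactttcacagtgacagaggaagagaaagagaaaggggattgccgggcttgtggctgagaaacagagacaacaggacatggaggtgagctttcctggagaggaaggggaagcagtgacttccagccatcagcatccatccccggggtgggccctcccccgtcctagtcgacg
Egfl7 encodes a protein that endothelial cells secrete, and its stretch belongs to an internal start site of the gene. Myct1 is an endothelial membrane protein, Edn1 the vasoconstrictor peptide endothelin 1, and Epb42 a protein of the red cell membrane. Robo4 is an endothelial receptor of the Roundabout family, and Itga2b is CD41, an integrin of platelets and of the earliest blood progenitors. Each window shown lay wholly inside its EPC-only region. The Robo4 and Itga2b windows held neither motif in these letters.

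With 1 window per gene and both strands read, GATA letters were present at 17 of the 61 promoters under EPC-only regions (27.9%, exact binomial 95% interval 17.1 to 40.8%). A promoter counted as under a region when its window overlapped the region by 1 bp or more, and the whole window was read. At Rbp2, Slc39a10 and Gm51937 the GATA match lay in a part of the window outside the EPC-only region. The share was 6 of 38 (15.8%, 6.02 to 31.3%) under CPC-only regions, 5.06% of 9010 under regions open in all 8 lists and 11.4% of all 27025 genes with a promoter window. ETS letters were present at 13 of 61 (21.3%, 11.9 to 33.7%), against 5 of 38 (13.2%, 4.41 to 28.1%), 20.4% and 15.5% in the same order of sets. SOX letters (ACAATG or ACAAAG) were present at 34.4% of promoters under EPC-only regions, against 34.2% under CPC-only regions, 17.4% under regions open in all 8 lists and 28.8% of all genes. E-box letters (CAGCTG or CATCTG) were present at 37.7%, against 52.6%, 22.9% and 30.4%. TEAD letters (GGAATG) were present at 23.0% (13.2 to 35.5%) under EPC-only regions and at 5.26% (0.644 to 17.7%) under CPC-only regions, against 10.9% and 14.6% in the other sets. AP-1 letters (TGANTCA) were present at 13.1%, against 7.89%, 3.68% and 7.93%, and an E-box (CANNTG) with 6 to 12 bases to GATAA, which can overlap a GATA match, at 2 of 61 promoters (3.28%, 0.40 to 11.3%), against 0 of 38, 0.388% and 1.18%. The median G and C content was 51.0% under EPC-only regions, 53.5% under CPC-only regions, 62.0% under regions open in all 8 lists and 52.7% over all genes, and its part in these shares was not tested. Intervals cover counting error only.

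Scores are those of the authors' peak caller, in the MACS 1.4 format minus 10 times the log10 of a peak's p-value, so a high score is a peak far above its background. Every list starts at a score of about 50 and holds 23068 to 30732 peaks. A relative score is a score divided by its list's median over regions open in all 8 lists. The words higher and lower after induction mean that both induced scores lay above or below both uninduced scores as deposited, and an exception on the relative scale is named. The lists hold no read counts, so depth is unknown, and a missing peak can mean a shallower library. Many EPC-only regions were near that floor. The lowest of a region's 4 scores was under 60 in 285 regions (26.5%) and under 100 in 747 (69.4%), with a median of 75.4 and a highest value of 772. The regions just inside the rule had lowest scores of 50.0 near Olfr687, 50.04 at H2-Eb2, 50.07 at Sgtb and at a region more than 50 kb from any protein-coding gene, and 50.2 at Mast4. Just outside it, 599 regions had a peak in 4 EPC lists and in 1 CPC list, where its median score was 64.0 to 69.4 by list. Another 1156 regions had a peak in 3 EPC lists and in 0 CPC lists, and 518 of these were missing in uninduced EPC 2, the shortest EPC list.

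Genes that mark the sorted cells did not all separate them. The gene of FLK1, Kdr, had 7 regions, and 0 of them were EPC-only. The Kdr region with the highest scores had 888 and 755 in induced EPC and 1011 and 415 in uninduced EPC, and it missed the rule through 1 peak of 106 in uninduced CPC 2. Pdgfra, the other sorting receptor, had a region with peaks of 59.8 and 161 in induced CPC and 55.6 and 106 in uninduced CPC, and of 61.7 in 1 EPC list. Another Pdgfra region was open in all 8 lists, with 161 and 237.8 in induced EPC, 282 and 119.8 in uninduced EPC, 367 and 272 in induced CPC and 463 and 63.2 in uninduced CPC. The one region given to the cardiac gene Nkx2-5 went against the labels, with 358 and 315 in induced EPC and 160.5 and 113 in uninduced EPC, and a peak of 59.8 in 1 CPC list. Of 192 regions at genes of an endothelial list, 89 to 116 had a peak in each EPC list, against 60 to 92 in each CPC list. Of 116 regions at genes of a blood list, 68 to 84 had a peak in each EPC list, against 43 to 63 in each CPC list. Of 124 regions at cardiac genes, 50 to 62 had a peak in each EPC list, against 55 to 71 in each CPC list. Over all regions the counts were 22805 to 30038 in EPC lists and 22182 to 28440 in CPC lists. Housekeeping regions had a peak in 25 to 31 cases in each EPC list, against 22 to 24 in each CPC list. The EPC range thus lay above the CPC range for the housekeeping list as it did for the blood list. Across induced and uninduced lists, the ranges overlapped for the endothelial and cardiac lists and over all regions. Within each state, however, the endothelial counts were higher in EPC. They were 116 and 89 in uninduced EPC, against 69 and 60 in uninduced CPC. In induced EPC they were 116 and 115, against 92 and 90 in induced CPC. Cardiac counts overlapped in uninduced lists and were lower in EPC in induced lists. Counts over all regions overlapped within each state.

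EPC-only regions lay at 798 of the 16799 protein-coding genes with any ATAC region (4.75%), each region being given to every gene body that it touched, or else to the closest gene up to 50 kb away. The shares of endothelial and blood genes were higher, and those genes also had more ATAC regions each, a median of 4 and 3, against 2 over all genes. Of 41 endothelial genes with an ATAC region, 11 had an EPC-only region (26.8%), and of 29 blood genes 8 had one (27.6%). CPC-only regions, found at 3.54% of all genes, lay at 2 of the 41 endothelial genes, Lmo2 and Nrp2, and at 2 of the 29 blood genes, Mecom and Runx1. Counted by region, 13 of 192 endothelial-list regions (6.77%, 3.65 to 11.3%) and 9 of 116 blood-list regions (7.76%, 3.61 to 14.2%) were EPC-only, against 853 of the 43060 regions given to any gene (1.98%). Because presence chose the regions, these shares describe them and carry no test. With a score of at least 100 required in all 4 EPC lists, which kept 330 regions, 6 endothelial and 2 blood genes had one. When regions were given by gene body only, 6 endothelial genes were left. The share over all genes was not counted under these settings, so the 4.75% is no background for them.

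Cardiac genes also had a higher share than the 4.75% over all genes, and they had a median of 5 ATAC regions each, against 2 over all genes. Of 22 cardiac genes, 3 had an EPC-only region (13.6%), namely Fgf10, Mef2c and Ryr2, against 6 with a CPC-only region (27.3%), and Fgf10 and Ryr2 had both kinds. By region, 5 of 124 cardiac regions were EPC-only (4.03%, 1.32 to 9.16%), an interval that holds the 1.98% of regions given to any gene. Efnb2, an ephrin ligand of arteries, and Plxnd1, a semaphorin receptor of endothelial cells, were the 2 of 21 genes of VEGF signalling and vessel guidance. Early mesoderm gave Eomes, 1 of 14 genes, endoderm gave Cubn, 1 of 19, and neural genes gave Sox1, 1 of 15. There was none at 15 Notch pathway genes, 14 housekeeping genes, 12 pluripotency genes and 8 smooth muscle genes.

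**Figure D1:**
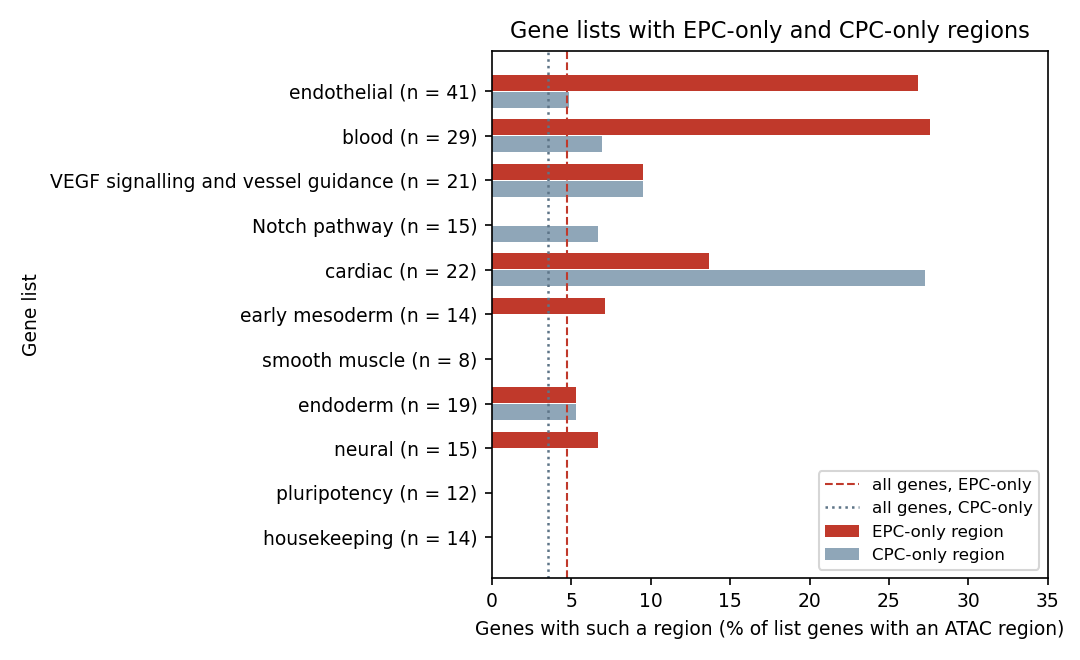
Percent of the genes of each list (n, list genes with an ATAC region) that had an EPC-only region (red) or a CPC-only region (blue-grey), with the same percent over all genes as dashed and dotted lines. The endothelial and blood lists reach 26.8% and 27.6% for EPC-only regions, and the cardiac list 27.3% for CPC-only regions.

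Among endothelial genes, 3 ETS transcription factors had an EPC-only region. The region inside Ets1 (chr9:32673812-32674731, GRCm38) had scores of 193 and 353 in induced EPC, against 79.8 and 70.3 in uninduced EPC. Both induced libraries were above both uninduced ones, with a ratio of mean scores of 3.64. The region 12.6 kb from Fli1 had 75.9 and 57.1 in induced EPC, against 164 and 89.6 in uninduced EPC, and here both induced scores were the lower ones. At Erg, the region inside the gene had 186 and 303 in induced EPC, against 582 and 229.8 in uninduced EPC, and the groups overlapped, with both induced libraries lower on the relative scale. The 3 ETS genes thus did not share a direction.

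Receptors and surface proteins of endothelium came next. Flt1, VEGF receptor 1, held the strongest region of either list inside the gene (chr5:147657355-147658748), with 1125 and 1010 in induced EPC, against 1015 and 626 in uninduced EPC. Its groups overlapped narrowly, and on the relative scale both induced libraries were higher. Cdh5, VE-cadherin of endothelial junctions, had a region 1.59 kb outside the gene (chr8:104098561-104100025) with 202 and 179.7 in induced EPC, against 211 and 52.1 in uninduced EPC. The Robo4 region covers the promoter shown above and had 161 and 279 in induced EPC, against 113 and 157 in uninduced EPC, higher in both induced libraries but overlapping on the relative scale. The region 33.6 kb beyond the end of Cd34, a sialomucin of vessels and blood progenitors, had 190.3 and 239.8 in induced EPC, against 263 and 283 in uninduced EPC, lower in both. Cd93, a lectin-like receptor, had a region 34.6 kb outside the gene. Its scores were 136 and 73.3 in induced EPC, against 143.5 and 73.3 in uninduced EPC. Icam2, an adhesion molecule, had 125 and 119 in induced EPC, against 189.9 and 99.5 in uninduced EPC. Both overlapped, though Icam2 was lower on the relative scale.

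Sox7 itself had 1 EPC-only region, 6.71 kb outside the gene (chr14:63957438-63958592). Its scores were 263 and 360.5 in induced EPC, against 524 and 495 in uninduced EPC. Both induced libraries were lower, with a ratio of mean scores of 0.61.

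Among blood genes, the region inside Ikzf1 (chr11:11734752-11735911), which encodes the lymphoid and stem cell factor Ikaros, had 371 and 569 in induced EPC, against 108 and 74.96 in uninduced EPC, a ratio of 5.13. The region that covers the end of Tal1 (chr4:115071202-115072421), the E-box protein needed for all blood formation, had 76.8 and 95.6 in induced EPC, against 179 and 117 in uninduced EPC. Ptprc, the leukocyte phosphatase CD45, had a region 15.6 kb upstream with 72.6 and 74.5 in induced EPC, against 77.6 and 123 in uninduced EPC. So Ikzf1 was higher, and Tal1 and Ptprc were lower, in both induced libraries, with Ptprc overlapping on the relative scale.

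The remaining blood regions overlapped between groups as deposited, and on the relative scale those at Gata2 and inside Spi1 were lower. The Gata2 region, inside the gene of this stem cell factor, had 151 and 166 in induced EPC, against 451 and 137 in uninduced EPC. Gata1, the erythroid factor, had 76.5 and 103 in induced EPC, against 99.9 and 56.1 in uninduced EPC, at the only ATAC region given to that gene. The Itga2b promoter region had 274 and 484 in induced EPC, against 365 and 207 in uninduced EPC. Spi1, the myeloid factor PU.1, had 1 region 2.95 kb outside the gene (77.9 and 159 in induced EPC, against 111 and 79.3 in uninduced EPC) and 1 inside (58.4 and 65.1, against 147 and 61.5). Cbfa2t3, a corepressor that joins Tal1 complexes, had a region 12.3 kb upstream. Its scores were 105 and 70.4 in induced EPC, against 92.9 and 83.4 in uninduced EPC.

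**Figure D2:**
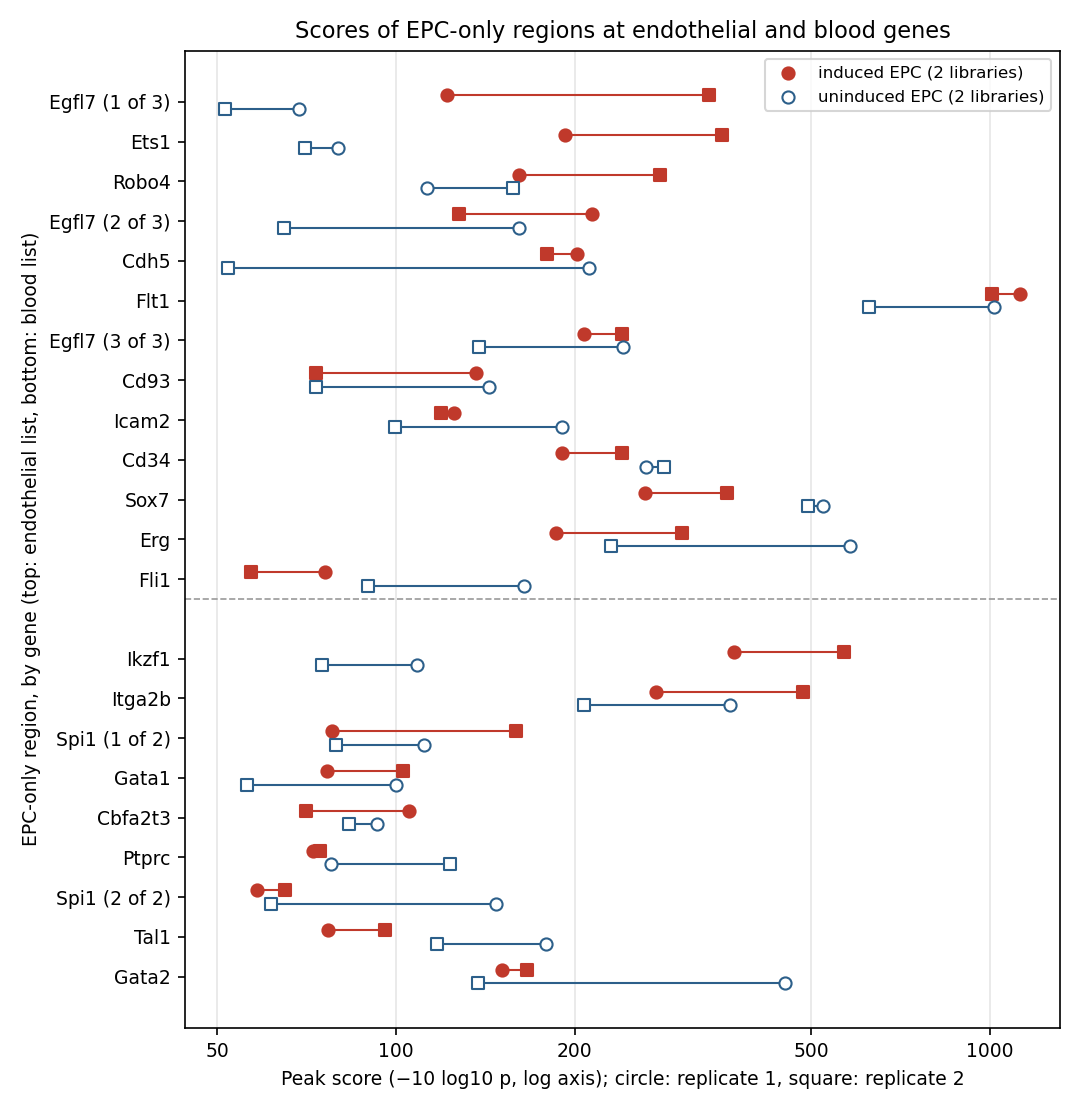
Peak score (log axis) of each EPC-only region at endothelial genes (top) and blood genes (bottom), with red filled symbols for the 2 induced and open blue symbols for the 2 uninduced EPC libraries, joined by lines. Ikzf1, Ets1, Robo4 and 1 Egfl7 region lie to the right in both induced libraries, and Fli1, Sox7, Cd34, Tal1 and Ptprc to the left. On the relative scale the groups of Robo4 and Ptprc overlap.

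A pair of regions noticed after their values were seen lies in the beta-globin locus, between the embryonic globin gene Hbb-y and the olfactory receptor gene Olfr66, to which the nearest-gene rule gave both. They begin 17.2 and 23.5 kb from Hbb-y, on the side away from the other globin genes, where the mouse locus has its control region. The nearer one had 105 and 125 in induced EPC, against 176 and 162 in uninduced EPC, and the farther one 347 and 338, against 262 and 175. The nearer region was lower and the farther one higher in both induced libraries.

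EPC-only regions were away from genes' ends more often than most open regions. Only 88 lay within 1 kb of a boundary of a protein-coding gene (8.17%, 6.60 to 9.97%). The share was 37 of 922 CPC-only regions (4.01%, 2.84 to 5.49%), 64.2% of regions open in all 8 lists and 27.1% of all other ATAC regions. The median distance to a boundary was 25.1 kb, against 40.5 kb for CPC-only regions and 10.5 kb for all other regions. A total of 534 EPC-only regions overlapped a gene body (49.6%, 46.6 to 52.6%), against 42.5% (39.3 to 45.8%) of CPC-only regions, and 224 had no protein-coding gene within 50 kb (20.8%, 18.4 to 23.3%), against 30.04% (27.1 to 33.1%). EPC-only regions therefore lay nearer to genes than CPC-only regions and farther than the rest. Their median width of 1031 bp was close to the 1037 bp of CPC-only regions and below the 1478 bp of regions open in all 8 lists.

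Most EPC-only regions stood alone. With members of a cluster within 50 kb of the next, 98 of 1077 were in a cluster (9.10%, 7.45 to 11.0%), against 89 of 922 CPC-only regions (9.65%, 7.82 to 11.7%). There were 42 pairs and 4 clusters of 3 or more, against 43 pairs and 1 such cluster for CPC-only regions. Of the 798 genes, 738 had 1 EPC-only region, 48 had 2, 10 had 3 and 2 had 4.

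The largest cluster held 5 regions over 69.7 kb on chromosome 2 (26571267 to 26640944, GRCm38). Of these, 3 were given to Egfl7, at 8.49 and 4.35 kb upstream of the gene and inside it at the promoter shown above. The fourth, the widest EPC-only region at 3564 bp, lies inside the neighbouring lipid enzyme gene Agpat2, near its end. It is 1.69 kb from the hairpin of Mir126a, the endothelial microRNA that Egfl7 hosts. The fifth lies 3.47 kb outside Dipk1b.

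Scores within the cluster differed from region to region. The region 4.35 kb upstream of Egfl7 had 122 and 336 in induced EPC, against 68.5 and 51.5 in uninduced EPC, and was the single one of the 5 with both induced scores above both uninduced scores. The region 8.49 kb upstream had 208 and 240.5 in induced EPC, against 241 and 138 in uninduced EPC. At the internal promoter the scores were 214 and 128 in induced EPC, against 161 and 64.7 in uninduced EPC. The wide region at Agpat2 had 337 and 463 in induced EPC, against 618 and 241 in uninduced EPC, and the one at Dipk1b 56.7 and 117, against 82.9 and 63.5.

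**Figure D3:**
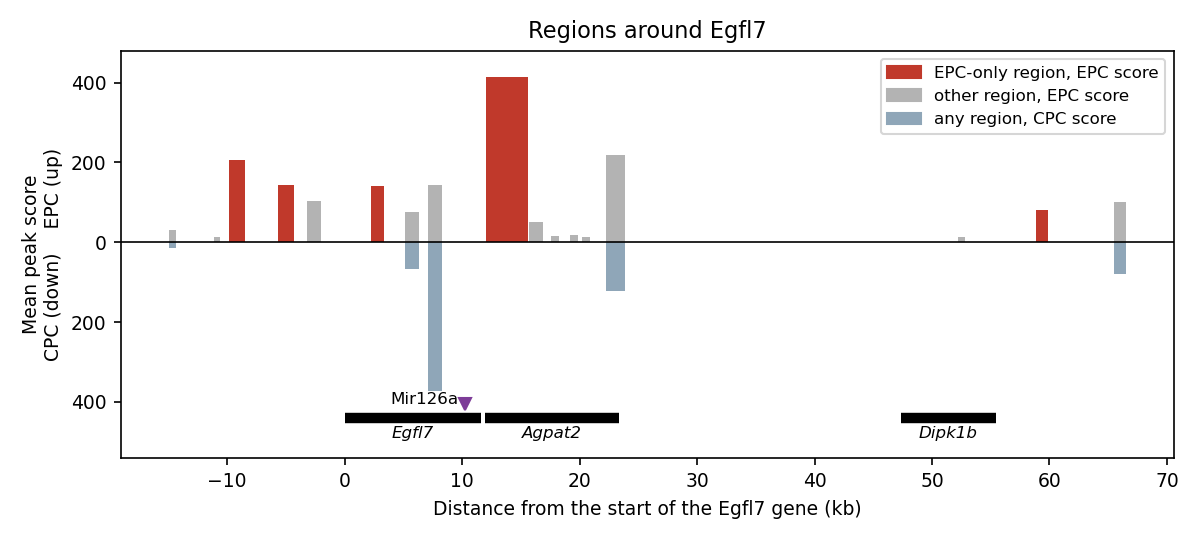
Mean peak score (lists without a peak count as 0) of every ATAC region around Egfl7, against distance from the gene's start in kb, with EPC scores upwards (red for the 5 EPC-only regions, grey for other regions) and CPC scores downwards. The 5 EPC-only regions have no CPC bar, whereas a region inside Egfl7 that is open in all 8 lists has a mean of 142 in EPC and 372 in CPC.

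Most other genes with 3 or more EPC-only regions held many ATAC regions. Pde4d, a cAMP phosphodiesterase with 34 ATAC regions, and Agbl4, a carboxypeptidase of tubulin with 27, had 4 each. Dlg2, a synaptic scaffold with 35, Robo2, an axon guidance receptor with 25, Nfia, a nuclear factor I gene with 23, Nav3, a neuron navigator gene with 18, Trappc9, of a vesicle tethering complex, with 14, and Srgap1, a GTPase activator of the Slit and Robo pathway with 10, had 3 each. Genes with fewer regions were Nek6, a mitotic kinase with 3 of its 5 regions EPC-only, Mpzl1, a cell surface adhesion protein with 3 of 7, and Olfr687, an olfactory receptor gene with 3 of 5.

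Neighbours on 1 gene did not always move together. Inside Srgap1, 2 adjacent regions went opposite ways. The one had 245 and 273 in induced EPC, against 146 and 101 in uninduced EPC, and the other 255 and 267, against 608 and 457, although the first overlapped between groups when the scores of its peaks were summed. The 3 Mpzl1 regions were all higher in both induced libraries, with ratios of mean scores of 1.31 to 1.66, of which 2 overlapped on the relative scale. The 3 at Olfr687, within 4.19 kb, were higher with ratios of 1.64 to 1.93, of which 1 overlapped on the relative scale. At Trappc9, 2 of its 3 regions were lower, the one shared with Gm31665 at 176 and 112 in induced EPC, against 683 and 268 in uninduced EPC. Dgki, a diacylglycerol kinase gene, had a pair 50.1 kb long in which both regions overlapped between groups and were lower on the relative scale.

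Over all 1077 regions, the median score was 122 and 135 in induced EPC, against 152 and 101 in uninduced EPC. The means were 129 ± 9.05 in induced EPC and 127 ± 36.1 in uninduced EPC (SD, n = 2 each), a difference of 1.75 (two-sided exact permutation test, p = 1). With 2 libraries against 2, the smallest p that test can give is 0.33. The uninduced libraries lay on both sides of the induced ones. The median relative score was 0.299 and 0.306 in induced EPC, against 0.335 and 0.370 in uninduced EPC, a difference of -0.0501 (exact permutation p = 0.33). On that relative scale both induced libraries were the lower ones, so the direction turned with the scale.

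Region by region, both induced scores were above both uninduced ones at 265 EPC-only regions (24.6%, 22.1 to 27.3%), close to the 24.2% of all 17298 regions with a peak in all 4 EPC lists. Both were below at 240 (22.3%, 19.8 to 24.9%), against 7.98% of those 17298 regions. These intervals count regions and leave out the difference between libraries, which all regions share. On the relative scale, 171 were higher (15.9%, background 18.6%) and 386 lower (35.8%, background 23.1%). The relative scale moved the median log2 ratio of all 17298 regions by more than 0.1, to -0.049 from 0.18, and on either scale the EPC-only regions had the lower median, 0.0042 as deposited and -0.24 relative. Of the 265 regions higher as deposited, 157 were also higher on the relative scale, and of the 240 lower ones 229 were also lower.

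The excess of lower regions over the background narrowed without 1 library. Without uninduced EPC 2, 49.0% of EPC-only regions were lower, against 45.5% of all regions with a peak in the 4 EPC lists, whereas without uninduced EPC 1 the shares were 26.7% and 10.4%. On the relative scale the shares without uninduced EPC 2 were 44.2% and 37.7%. Depth is unknown, and its part in these shares was not tested.

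The share of lower regions was also counted by the number of CPC lists that held a peak. This is a description with no test, since the rule used those lists. Of them 2 were induced CPC, so a region open in all EPC lists that gained a peak in CPC on induction is not EPC-only. The share was 22.3% with 0 CPC lists, 18.2% with 1, 12.0% with 2, 11.1% with 3 and 5.67% with 4. On the relative scale it was 35.8%, 31.4%, 23.9%, 24.3% and 21.5%. Within bands of mean score, the share of lower regions was 19.6% of EPC-only regions and 13.1% of other regions with a peak in 4 EPC lists at scores of 50 to 100, and 27.5% and 11.1% at scores of 150 to 200. Strength was matched only to the width of these bands.

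**Figure D4:**
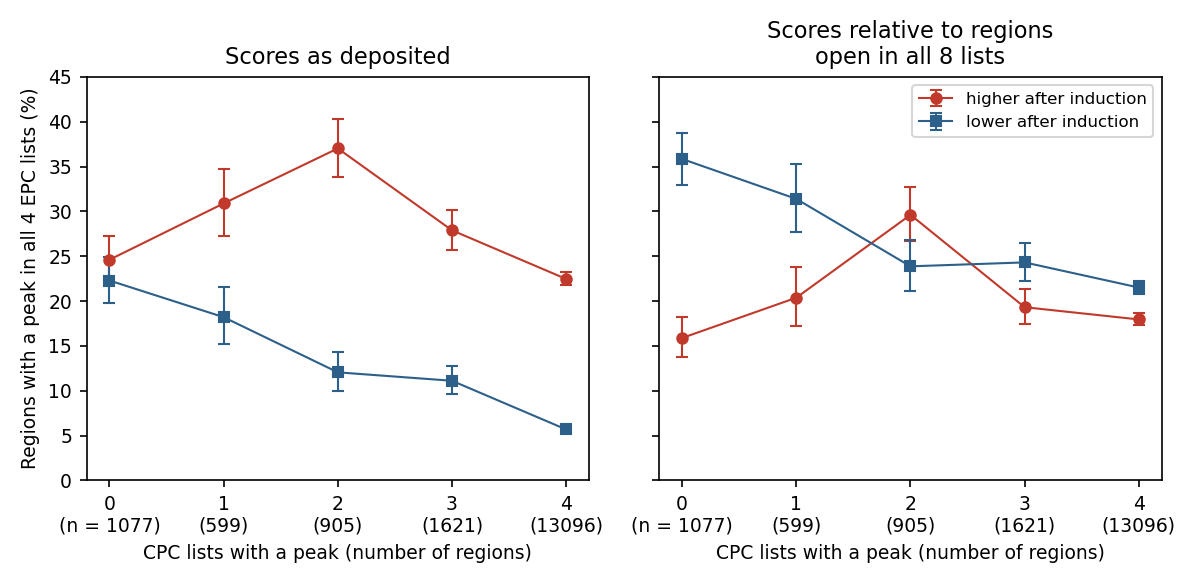
Percent of regions with a peak in all 4 EPC lists whose 2 induced scores were both above (red circles) or both below (blue squares) the 2 uninduced scores, by the number of CPC lists that also held a peak, as deposited (left) and on the relative scale (right), with exact binomial 95% intervals. The lower share is 22.3% with 0 CPC lists (the EPC-only regions) and 5.67% with 4. The intervals leave out the difference between libraries.

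CPC-only regions, read in the CPC lists, went the same way. Both induced scores were below at 240 of 922 (26.0%, 23.2 to 29.0%), against 8.93% of all 16355 regions with a peak in 4 CPC lists, and above at 170 (18.4%), against 23.7%. Their median on the relative scale was 0.347 ± 0.00110 in induced CPC and 0.459 ± 0.0160 in uninduced CPC (SD, n = 2 each, exact permutation p = 0.33). A higher share of lower scores after induction was thus not particular to EPC-only regions.

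**Figure D5:**
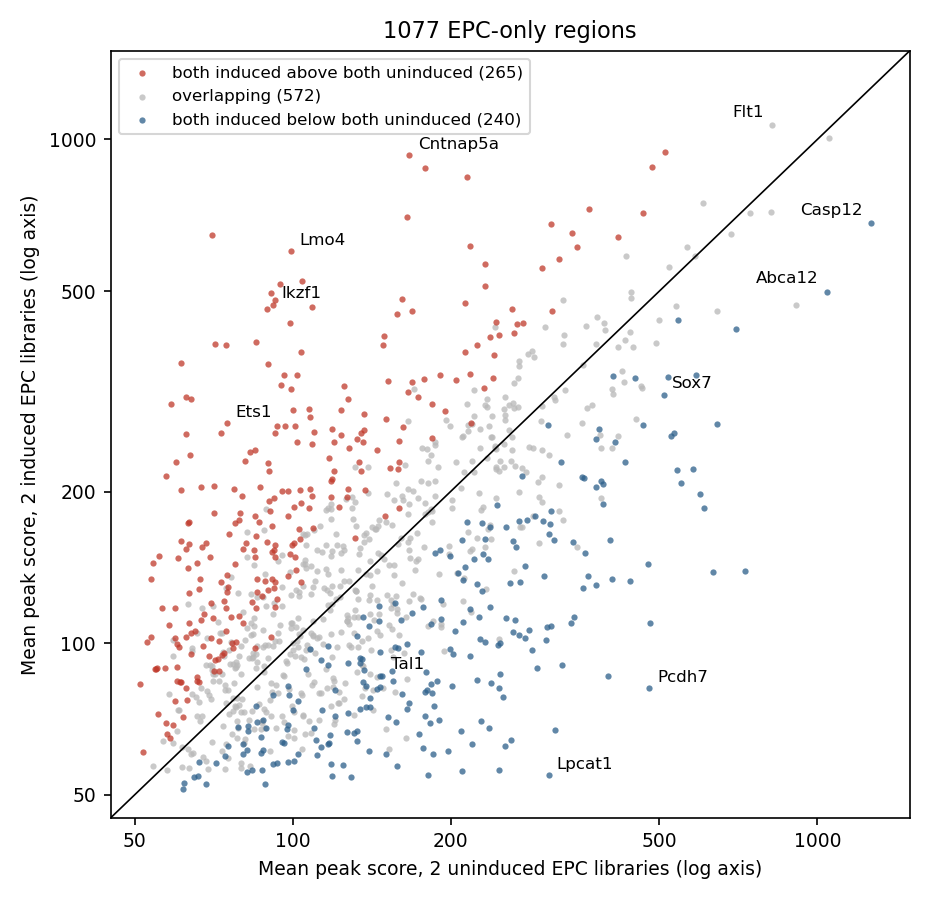
Mean peak score of the 2 induced EPC libraries (vertical, log axis) against that of the 2 uninduced EPC libraries (horizontal, log axis) for each of the 1077 EPC-only regions, coloured by whether the induced scores lie above, among or below the uninduced ones. The line marks equal scores, and 265 regions are coloured as above and 240 as below.

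The 10 strongest EPC-only regions had mean scores over the 4 EPC lists of 677 to 1029, against a median of 133 over all of them. The strongest (chromosome 2, 74955413 to 74956798) had no protein-coding gene within 50 kb and scored 913 and 1097 in induced EPC, against 1333 and 772 in uninduced EPC. Casp12, a caspase of the endoplasmic reticulum stress response, followed with a region 1.401 kb upstream at 562 and 799.8 in induced EPC, against 1431 and 1102 in uninduced EPC. Abca12, a lipid transporter, had a region 34.5 kb upstream with 468 and 529.9 in induced EPC, against 1237 and 853 in uninduced EPC. The Casp12 and Abca12 regions were lower in both induced libraries. The region 24.3 kb upstream of Pde5a, the cGMP phosphodiesterase, had 839 and 1047, against 684 and 339.6. This region and the one inside Robo2, with 720.5 and 1043, against 570.4 and 397, were higher in both induced libraries. The other regions of the 10 overlapped between groups as deposited and lay at Flt1, at Sla and Tg, near Ap1m1, at Appl2 and at a region of chromosome 14 without a protein-coding gene. On the relative scale Flt1 was higher, and the Sla, chromosome 14 and strongest chromosome 2 regions were lower.

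The largest ratio of mean induced to mean uninduced scores was 9.20, at a region of chromosome 13 (69913849 to 69914968) with no protein-coding gene within 50 kb. It had 698 and 591 in induced EPC, against 74.2 and 65.9 in uninduced EPC. Lmo4, a LIM-domain cofactor, had a region 39.1 kb upstream with 543 and 656 in induced EPC, against 138 and 60.5 in uninduced EPC. Regions 26.4 kb upstream of Sftpb (ratio 5.87), inside Cntnap5a (5.58) and on chromosome 10 without a protein-coding gene (5.50) completed the top 5. At the other end, the region inside Pcdh7, a protocadherin, had 78.8 and 84.1 in induced EPC, against 651 and 304 in uninduced EPC, a ratio of 0.17. Lpcat1 (0.18), a region of chromosome 4 without a protein-coding gene (0.19), Sh3rf1 (0.21) and Nsmce1 (0.22) followed. These 10 were chosen for their ratios, which are a description.

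Sox7 ChIP-seq, which the rule did not use, placed an induced site on 4 of the 1077 EPC-only regions (0.371%, 0.101 to 0.948%). Such sites, 235 in all, needed peaks from 3 or more of the 4 induced ChIP libraries and none from uninduced ones. The share was 0 of 922 CPC-only regions (upper limit 0.399%) and 0.414% of all other ATAC regions (0.36 to 0.475%), so EPC-only regions did not stand apart from the rest at this number. Uninduced ChIP lists 2 and 4 shared 585 of 772 peak starts (75.8%) and were counted as 1 library. With a peak in at least 1 induced and 0 uninduced libraries, 36 EPC-only regions were covered (3.34%, 2.35 to 4.60%), against 7 CPC-only regions (0.759%, 0.306 to 1.56%) and 3.23% of all other regions (3.08 to 3.39%). The interval of the EPC-only share lay above that of CPC-only regions and held that of the rest.

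Of the 4 regions on an induced site, 3 were higher after induction, with Ndufa8 overlapping on the relative scale, beside 24.2% of all 17298 regions as deposited and 18.6% relative. With 4 regions, nothing is read from this count. They were at Pigp, of GPI anchor synthesis (385 and 575 in induced EPC, against 118 and 67.1 in uninduced EPC), 16.2 kb upstream of Gpam, an acyltransferase of fat synthesis (212 and 398, against 71.4 and 56.5), and 2.71 kb from Ndufa8, of mitochondrial complex I (307 and 159, against 100.3 and 134). The fourth, at the RNA-binding protein gene Hnrnpa3, had 88.8 and 89.0 in induced EPC, against 152 and 79.7 in uninduced EPC, overlapping as deposited and lower on the relative scale. None of the 4 genes is on the endothelial or blood list.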

How the data were processed

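The authors deposited 1 peak list per library, and each peak carries their score. Per the submitters' processing notes, which give no roles, the build was GRCm38 (mm10), and Bowtie2, Trimmomatic, SAMtools, MACS 1.4 and bedtools are among the tools. The score is taken as minus 10 times the log10 of the p-value, from the format of that peak caller. From the deposited lists, peaks were merged at 1 bp overlap and a region took the highest score of its peaks in each list. Genes came from the RefSeq table of GRCm38.p6, which has no strand, and strands and start sites from the RefSeq promoter table, which gives nothing for some genes. No genome of the build was used, so motifs were read only in promoter windows. Merging and calls were run on simulated lists with little noise and a large fixed rise, which checks the code and not its accuracy on the real lists. Shares have exact (Clopper-Pearson) 95% intervals. Exact permutation tests (two-sided) between libraries used SciPy 1.17.1 under Python 3.11.15. The members and gene lists were chosen with earlier results of these data known. Named are endothelial and blood list genes with a member, genes with 3 or more members, members on an induced ChIP site, the 5 largest clusters, the 5 lowest minimum scores, the 10 highest mean scores and the 5 highest and 5 lowest ratios. Genes outside that rule are marked as chosen after their values were seen. Uninduced ChIP lists 2 and 4 were counted as 1 library. The alternatives changed merging, score limits, list length, scale, libraries, distances and gene assignment.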

Additional observations from a re-analysis of the deposited data

How the results depend on the processing

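The number of EPC-only regions was 1063 to 1083 under other merging, 792 with a score of 60 and 330 with 100 in all EPC lists, 981 and 729 with every list limited at 60 and 100, and 946 in lists of equal length. Leaving out 1 of the 8 libraries gave 1154 to 1596, the highest without uninduced EPC 2. Each omission drops 1 condition of the rule, so this number could hardly fall. Of the 946 regions from equal-length lists, 717 overlapped one of the 1077 (75.8%), and of the 729, 330 did (45.3%). Beside each count of higher or lower regions below stands the share of EPC-only regions and, after it, that of all regions with a peak in the EPC lists. Higher regions numbered 171 on the relative scale (15.9 and 18.6%) and 161 by rank in equal-length lists (14.9 and 18.1%), and lower ones 386 (35.8 and 23.1%) and 417 (38.7 and 24.5%). Without 1 EPC library, higher regions numbered from 319 without uninduced EPC 2 (29.6 and 27.2%) to 537 without uninduced EPC 1 (49.9 and 72.3%). There were 428 without induced EPC 1 (39.7 and 40.6%). Lower ones numbered from 288 without uninduced EPC 1 (26.7 and 10.4%) to 528 without uninduced EPC 2 (49.0 and 45.5%). There were 396 without induced EPC 2 (36.8 and 17.8%). On the relative scale, chosen for this after seeing the data, 234 (21.7 and 33.2%) to 370 (34.4 and 35.2%) were higher. Lower ones then numbered 497 without induced EPC 1 (46.1 and 37.4%), 533 without induced EPC 2 (49.5 and 36.0%), 602 without uninduced EPC 1 (55.9 and 41.6%) and 476 without uninduced EPC 2 (44.2 and 37.7%). The median difference was -0.0501 on the relative scale, -23.8 without uninduced EPC 2, -4.66 without induced EPC 2 and up to 27.3 without uninduced EPC 1. The relative scale turned 1 Robo2 region to -0.033 (log2), and 9 other named regions overlapped on it. The share near a boundary was 21.4% within 5 kb, against 13.1% of CPC-only regions and 39.9% of all other ATAC regions. It was 15.9% with all genes of the table and 5.45% at a score of 100, where the other sets were not counted. The share in clusters was 6.41% at 25 kb, 14.1% at 100 kb and 4.24% at a score of 100. On ChIP sites it was 0.0929% with 4 induced libraries and 3.34% with 1, against 0.171% and 3.23% of all other ATAC regions. On the authors' deposited Sox7 list it was 0.836%, against 0.944% of all other ATAC regions. Endothelial genes numbered 6 by gene body, 18 with every gene within 50 kb (background then 8.48%) and 6 at a score of 100, and blood genes 2 at that score. For the gene body and score settings the share over all genes was not counted. Leaving out 1 library, again with 1 condition fewer, gave 11 to 16 endothelial, 8 to 10 blood and 3 to 5 cardiac genes, the 5 without induced CPC 2. The share over all genes was not counted there. Apart from the fewer peaks that a higher score limit leaves and the condition dropped with a library, the cause was not tested. Libraries share only a number (correlation of deviations 0.021 over 17298 regions), and with the replicate block 318 regions were higher (29.5 and 32.3%) and 321 lower (29.8 and 12.1%), with a difference of 1.75. With every promoter window of a gene, an alternative chosen after seeing the data, GATA letters were in 30.8% of 65 windows. Motif windows of 200 and 500 bp were not run, as no genome of the build was used. Depth is unknown and limits every statement that rests on a missing peak.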

Other observations

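Genes of blood cell signalling outside the lists, chosen after their values were seen, also carried EPC-only regions. Lcp2, the adaptor SLP-76, had 2. The one 24.2 kb downstream had 58.6 and 52.7 in induced EPC, against 200.4 and 221 in uninduced EPC, lower in both, and the one inside the gene overlapped, with 299 and 474, against 606 and 228. Inpp5d, the lipid phosphatase SHIP1, had 121 and 154 in induced EPC, against 216 and 197 in uninduced EPC. Plek, pleckstrin of platelets, had 280.0 and 253 in induced EPC, against 401 and 367 in uninduced EPC. Itgb2, the leukocyte integrin chain CD18, had 81.9 and 117 in induced EPC, against 205 and 126 in uninduced EPC. These 3 were lower in both induced libraries, and Lyn, a Src-family kinase, overlapped with 140.3 and 114, against 151 and 82.2.

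Dusp2, a MAP kinase phosphatase, had 2 regions within 50 kb, both lower after induction. The one at its start had 122 and 98.5 in induced EPC, against 269 and 153 in uninduced EPC, and the other 58.8 and 81.5, against 297 and 159. Rapgef5, an exchange factor for small GTPases, had, among 2, a region with 462 and 319 in induced EPC, against 179 and 118 in uninduced EPC, higher in both. These genes were picked for their regions, so the values say nothing of such genes as a group.

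The input list covered 1 EPC-only region (0.0929%), against 1.08% of all other ATAC regions. The authors' deposited list named for induced-only EPC peaks also covered 1 of the 1077 (0.0929%). It covered 6.47% of all other ATAC regions and 0.456% of the other regions with a peak in 4 EPC lists. Since the rule asks for peaks in both uninduced EPC lists, little overlap with that list could occur, and nothing is read from it. The share of a chromosome's ATAC regions that were EPC-only ran from 1.71% on chromosome 14 to 2.73% on chromosome 9, and was 0 of 46 on chromosome Y.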
